A study of Mus musculus with 20 samples.

Results

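The UDP-glucuronosyltransferase (Ugt) and sulfotransferase (Sult) genes of mouse liver were compared between 5 inbred strains on a high fat diet. Members were taken by name, as the probes of the array that carry a Ugt1a, Ugt2a, Ugt2b, Ugt3a or Sult symbol. This gave 42 probes of 31 genes, 14 Ugt and 17 Sult, of the 34948 gene names on the array. A gene entered the tests when the scanner flagged a probe of it as well above background in all 4 mice of a strain. All 14 Ugt genes and 8 of the 17 Sult genes did so, 22 in all on 27 probes, and 18 of the 22 were above background on all 20 arrays. The other 9 Sult genes were not detected. Since a gene may pass through the strain in which it is high, the 22 are not a neutral sample of the 31.

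Ugt enzymes sit in the membrane of the endoplasmic reticulum and transfer glucuronic acid from UDP-glucuronic acid to bilirubin, steroids, bile acids, phenols and drugs. Cytosolic Sult enzymes transfer sulfate from PAPS (3'-phosphoadenosine-5'-phosphosulfate) to steroids, phenols and catecholamines. Both kinds of conjugate are more soluble than the parent compound, leave the hepatocyte through transporters and can be cleaved again by glucuronidases and sulfatases. The Ugt1a enzymes come from a single locus, in which alternative first exons are each joined to the same downstream exons, whereas Ugt2b and Sult enzymes come from separate genes.

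The series asks how liver expression differs between strains that resist and strains that develop diabetes. Each group holds 4 male mice, 1 array each: NZO (NZO/HiBomDife, obese and susceptible), DBA (DBA/2J, lean and susceptible), B6 (C57BL/6, lean and resistant), C3H (C3HeB/FeJ, lean and susceptible) and 129Ola (129P2/OlaHsd, lean and resistant). Every mouse received the diet with 45% fat, so there is no group on another diet, and liver was taken in week 6, which the labels give both as age and as the end of the feeding. The p-values measure the spread between these mice of each inbred strain. Mice are named by strain and animal number.

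Levels are log2 of the processed spot intensity minus the 75th percentile of the array, so a level of 0 is the 75th percentile of all probes, and a difference of 1 is a doubling. Levels of different probes cannot be set against each other. Between 40.0 and 59.0% of probes were above background per array, and the lowest such level was -4.33 to -2.56, highest on the 129Ola and C3H arrays. The NZO, DBA and B6 arrays were scanned over 3 days, which they partly share. The C3H arrays had a scan day and a slide of their own, and the 129Ola arrays a scan day and 2 slides of their own, so in that pair batch and strain cannot be told apart. C3H and 129Ola were also read with a later version of the extraction software than NZO, DBA and B6, and differences across these sets cannot be told apart from the version. The 5 hepatocyte markers had a mean level of 10.34 to 10.51 in NZO, 10.28 to 10.48 in DBA, 10.16 to 10.40 in B6, 10.36 to 10.47 in C3H and 10.10 to 10.43 in 129Ola, with 2 of 5 higher in C3H than in 129Ola. The mean of the 6 Kupffer cell and macrophage markers was 2.79 to 3.11 in NZO and 2.92 to 3.12 in DBA, against 3.52 to 4.09 in B6, with 5 of 6 lower in NZO than in B6 and 4 of 6 lower in DBA than in B6. It was 2.47 to 3.39 in C3H and 2.78 to 3.31 in 129Ola, with 1 of 6 higher and 3 lower in C3H. Of 5 stellate cell markers, 2 were lower in NZO and 3 lower in DBA than in B6. Of 4 cholangiocyte markers tested, 2 were lower in NZO and 1 in DBA than in B6, and 2 lower in C3H than in 129Ola, with mean levels of -2.11 to -1.30 in NZO, -1.50 to -1.08 in DBA, -0.78 to -0.48 in B6, -1.88 to -1.62 in C3H and -1.76 to -0.49 in 129Ola. Of 3 erythroid markers tested, 1 was higher in NZO and 1 in DBA than in B6, and 2 higher in C3H, at a mean level of 6.26 to 6.77 in C3H and 5.09 to 5.73 in 129Ola. NZO 7 stood apart in skeletal muscle genes, with Acta1 at 2.99 and Myh4 at 3.05, against at most -2.76 and -2.62 in the other NZO mice. Without NZO 7, 9 members were called in NZO against B6 and 4 in NZO against DBA. The part of these cells in the results was not tested. In whole liver, fewer cells of a type and less RNA per cell cannot be told apart.

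The probes decide which transcripts a value stands for, and 5 of the 27 that passed list transcripts of more than 1 gene in the array files. These are the brighter of 2 Ugt1a10 probes, which also lists Ugt1a9, the Ugt1a6a probe, 1 of 2 Ugt1a6b probes, the Ugt2a1 probe, which also lists Ugt2a2, and the Ugt2b36 probe, which also lists Ugt2b37. The Ugt2b37 and Ugt2b5 probes list 1 gene each but are alike, with 83.6% identity over 55 aligned bases. Whether either also binds the transcript of the other was not tested. A strain can carry a sequence variant under a probe, which could change the signal without a change of expression. This was not tested for any probe. It applies to every strain difference reported here, among them those of Ugt1a10, Sult1a1, Sult4a1 and Sult5a1. The 2 Ugt1a10 probes abut at chr1:89952720-89952779 and chr1:89952780-89952839 (mm9, plus strand), and the upstream Ugt1a6b probe lies at chr1:90004249-90004308. Their sequences are shown because the Ugt1a results turn on them. Capitals in the bright Ugt1a10 probe and in the upstream Ugt1a6b probe mark the 32 of 54 aligned bases that both share without a gap, 59.3%.
Ugt1a10, second probe: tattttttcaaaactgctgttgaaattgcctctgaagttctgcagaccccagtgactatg
Ugt1a10, bright probe: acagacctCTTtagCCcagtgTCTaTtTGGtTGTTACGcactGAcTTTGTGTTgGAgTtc
Ugt1a6b, upstream probe: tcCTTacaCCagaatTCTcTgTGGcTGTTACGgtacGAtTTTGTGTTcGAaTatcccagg
The other Ugt1a6b probe (chr1:90115493-90115552) and the Ugt1a6a probe (chr1:90116514-90116573) lie 162653 bases or more downstream of the bright Ugt1a10 probe and 961 bases apart. Each lists transcripts of 4 genes of the locus, among them Ugt1a10, Ugt1a6a and Ugt1a7c on both. They are called the shared-end probes here, and neither value is specific to the gene of its symbol.

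Most of the family passed a test over the 5 strains. That test spans both versions of the extraction software, so a pass can be a difference of version rather than of strain. Across the 5 strains 20 of the 22 genes tested passed (12 of 14 Ugt and 8 of 8 Sult, limma's moderated F test, adjusted p under 0.05), while 71.1% of all 20684 genes tested did so. Ugt2a1 and Ugt2a3 were the exceptions. In NZO against B6, 10 of the 22 changed, 45.5%, against 18.2% of all genes: 7 were higher in NZO (9.69% of all genes) and 3 lower (8.55%). In DBA against B6, 8 changed, 36.4% against 15.3% of all genes, all of them higher in DBA (7.25% of all genes higher, 8.08% lower). The 2 comparisons share the B6 mice. In all counts and lists here Ugt1a6b stands on its shared-end probe, which lists transcripts of 4 genes. Its upstream probe, which lists Ugt1a6b alone, was lower in NZO than in B6 by -0.67 and did not pass in DBA against B6. Ugt1a10, Ugt1a6a and Ugt1a6b are counted as separate genes, although the probes used for Ugt1a6a and Ugt1a6b also list Ugt1a10 transcripts. The counts can thus take in this locus more than once. NZO and DBA differed in 5, 22.7% against 18.0% of all genes, 2 higher in NZO (9.78% of all genes) and 3 lower (8.26%). C3H and 129Ola differed in 12, 54.5% against 37.8% of all genes, and all 12 were lower in C3H (22.5% of all genes lower, 15.3% higher). The median difference of the 22 genes was 0.39 in NZO minus B6, where that of all genes was 0.05. It was 0.40 against 0.01 in DBA minus B6, 0.02 against 0.04 in NZO minus DBA, and -0.48 against -0.08 in C3H minus 129Ola. With the array percentile taken over probes above background on all arrays, the C3H minus 129Ola differences of all genes shifted up by 0.16, and 2 members were then higher in C3H and 11 lower. The share of higher calls among all genes in that pair was 40.5% as reported and 63.7% with this scaling, in NZO against B6 53.1 and 38.9%, and in the class comparison below 41.3 and 52.6%. Without B6 11, 6 members changed between NZO and B6. All 23 called differences among NZO, DBA and B6 kept their sign on each of the 2 scan days that hold all 3 strains. These days hold 1 DBA mouse each, 3 and 1 NZO mice and 2 B6 mice each, of the arrays on which the calls were made, so this is a description only. With scan day as a block, Sult1c2, Sult5a1, Ugt1a10 and Ugt1a6b, 4 of the 8, remained past the threshold for DBA against B6. For NZO against DBA it was Sult1a1 and Sult4a1, 2 of the 5. With slide as a random block, Sult1b1, Sult1e1, Ugt1a10, Ugt1a6b and Ugt3a2, 5 of the 12, remained in C3H against 129Ola.

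**Figure D1:**
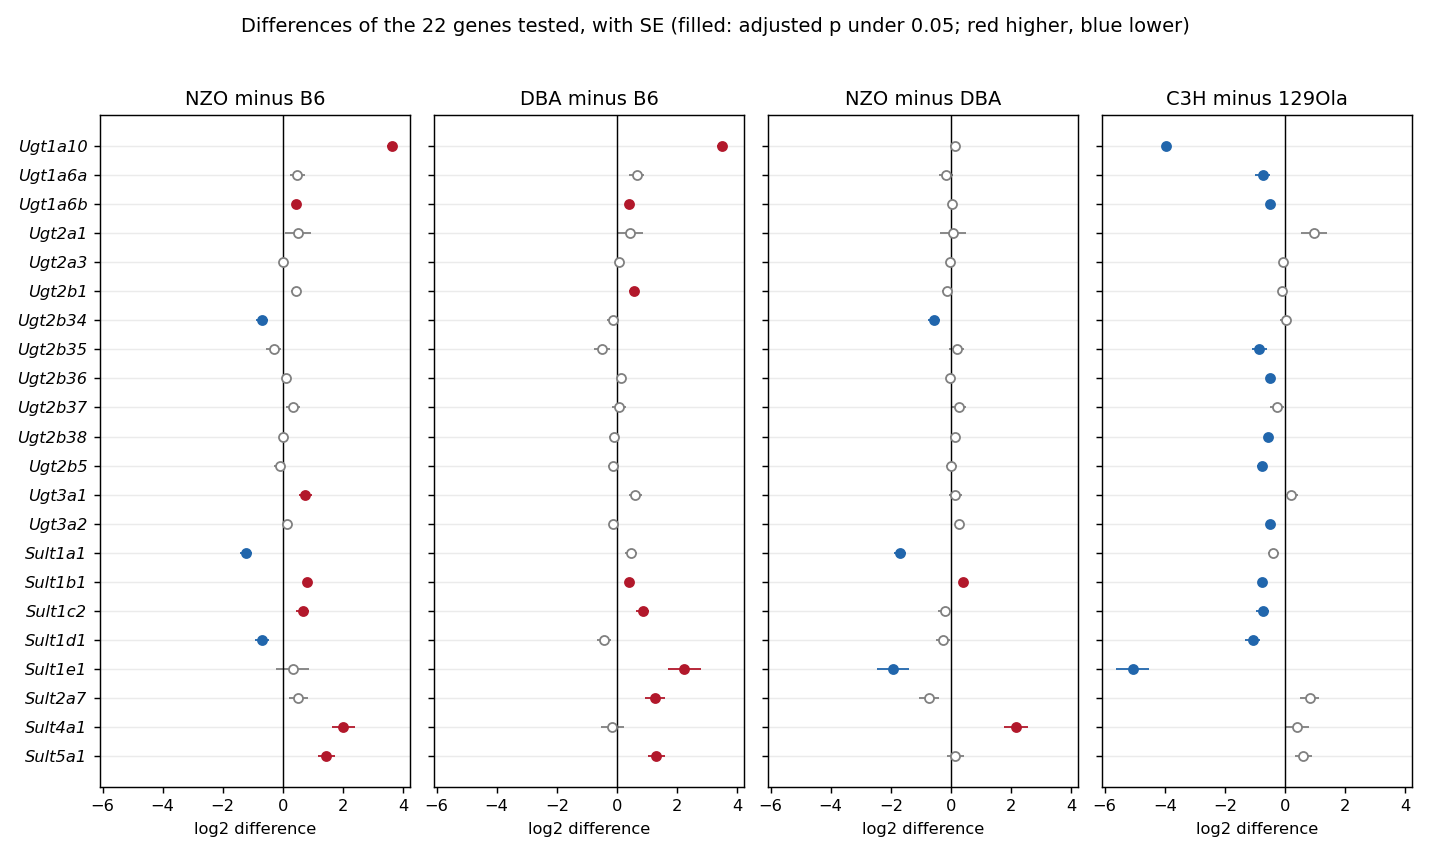
Log2 difference with its SE (x axis) of each of the 22 genes tested (rows), in NZO minus B6, DBA minus B6, NZO minus DBA and C3H minus 129Ola (panels). Ugt1a6b is shown on its shared-end probe. Filled points passed at adjusted p under 0.05, red for higher and blue for lower in the strain named first: 10 did so in NZO minus B6, 8 in DBA minus B6, 5 in NZO minus DBA and 12, all lower, in C3H minus 129Ola.

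Ugt1a10, an enzyme known in humans mainly from tissues outside the liver, had the widest spread over the strains of the 3 Ugt1a symbols. On the bright probe, its level was 5.40, 4.50, 5.07 and 5.08 in NZO 3, 7, 9 and 11. In DBA 5, 8, 9 and 15 it was 4.85, 5.02, 4.70 and 4.98. The B6 mice 9, 10, 11 and 15 were at 1.15, 1.61, 1.35 and 1.46. Every NZO and DBA mouse was thus far above every B6 mouse, and the NZO and DBA ranges overlapped. C3H 1, 2, 3 and 5 were at -0.20, -0.43, -0.42 and -0.33, whereas 129Ola 4, 5, 7 and 9 were at 3.69, 3.45, 3.51 and 3.79. In this pair the susceptible strain was the low one, with no overlap. Ugt1a10 was higher in NZO than in B6 by 3.62 (SE 0.15), which is 12.3-fold, with an adjusted p of 1.25e-11. In DBA it was higher than in B6 by 3.49 (SE 0.15, 11.3-fold, adjusted p = 1.71e-11). NZO minus DBA was 0.13 (SE 0.15) and did not pass. C3H minus 129Ola was -3.96 (SE 0.15, adjusted p = 3.39e-12), so C3H had 0.0644 times the 129Ola level. The order of the means was 5.01 ± 0.37 in NZO, 4.89 ± 0.14 in DBA, 3.61 ± 0.16 in 129Ola, 1.39 ± 0.19 in B6 and -0.35 ± 0.11 in C3H (SD, n = 4 each), and NZO and DBA were the only neighbours whose mice overlapped. The step between 129Ola and B6, and that between B6 and C3H, cross the software versions. Within scan days 1 and 2, NZO minus B6 was 3.65 and 3.25 and DBA minus B6 was 3.17 and 3.60.

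The second Ugt1a10 probe, which lists Ugt1a10 transcripts only, gave the same directions at low signal. It abuts the bright probe, so the 2 are not independent. The bright probe also lists Ugt1a9, and which transcript gave its signal was not tested. The second probe was above background in all 4 NZO and all 4 DBA mice and in 2 of 4 B6 mice. Its means were -0.61 in NZO, -1.54 in DBA and -3.61 in B6. Tested as a feature of its own, NZO minus B6 was 3.00 (SE 0.49, adjusted p = 0.000214) and DBA minus B6 was 2.07 (SE 0.49, adjusted p = 0.00613). It was above background in none of the 4 C3H mice and in 3 of the 4 129Ola mice.

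The other Ugt1a probes moved much less, and those under the Ugt1a6b symbol went apart between NZO and B6. Ugt1a6 enzymes conjugate small planar phenols. On the shared-end probe the level was 8.66, 8.26, 8.54 and 8.51 in NZO, against 7.97, 8.14, 7.99 and 8.14 in B6, a difference of 0.43 (SE 0.09, adjusted p = 0.00291). On the upstream probe it was 3.28, 2.59, 3.10 and 3.19 in NZO, against 3.73, 4.03, 3.51 and 3.58 in B6, a difference of -0.67 (SE 0.16, adjusted p = 0.00519 with every probe as a feature). Neither pair of ranges overlapped, and the 2 signs are opposite. The mean of both probes differed by -0.12 in NZO minus B6 (adjusted p = 0.546) and by 0.09 in DBA minus B6 (adjusted p = 0.735), and neither passed. In DBA the shared-end probe was at 8.30, 8.54, 8.50 and 8.52, higher than in B6 by 0.41 (SE 0.09, adjusted p = 0.00489). The DBA upstream probe was at 3.27, 3.72, 3.47 and 3.44, and DBA minus B6 of -0.24 (SE 0.16) did not pass (adjusted p = 0.395). Both probes were lower in C3H than in 129Ola, by -0.49 (SE 0.09, adjusted p = 0.000721) for the shared end, at 7.85 to 8.01 in C3H and 8.31 to 8.60 in 129Ola, and by -0.41 (SE 0.16, adjusted p = 0.047) for the upstream probe. With normexp the shared-end difference was -0.27 (adjusted p = 0.0177).

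Ugt1a6a was measured only by the second shared-end probe, at low signal, and its value is not specific to Ugt1a6a. It was -2.73 to -1.75 in NZO, -2.58 to -1.61 in DBA, -3.08 to -2.64 in B6, -2.72 to -2.41 in C3H and -2.25 to -1.34 in 129Ola. C3H was lower than 129Ola by -0.75 (SE 0.24, adjusted p = 0.0223). The call was lost without C3H 1, 129Ola 5 or 129Ola 7 and with slide as a random block (adjusted p = 0.125). It was also lost with the percentile over probes above background on all arrays, at -0.58 (adjusted p = 0.0636). The differences from B6 were 0.48 in NZO and 0.65 in DBA, both with an SE of 0.24, and did not pass.

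**Figure D2:**
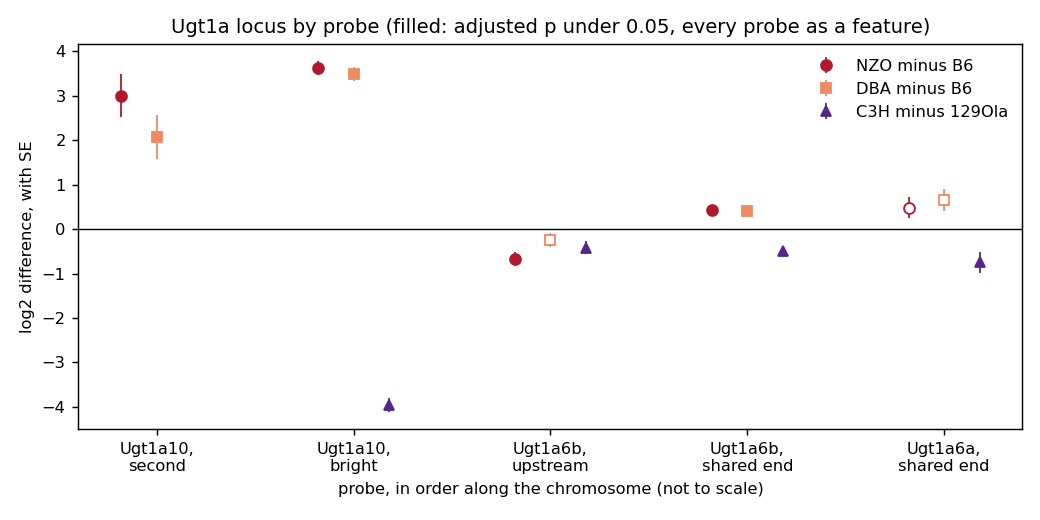
Log2 difference with its SE (y axis) of each of the 5 Ugt1a probes (x axis, in order along the chromosome), for NZO minus B6, DBA minus B6 and C3H minus 129Ola. Filled symbols passed with every probe as a feature, and C3H minus 129Ola is left out for the second Ugt1a10 probe, which no C3H array had above background. Both Ugt1a10 probes are 2.07 or more up in NZO and DBA, the upstream Ugt1a6b probe is -0.67 in NZO minus B6 and the shared-end probe of the same symbol is 0.43.

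The Ugt2 genes act on steroids, bile acids and fatty acids. Of the 9 tested, 1 changed in each comparison among NZO, DBA and B6, near the share of all genes called. That share was 18.2% for NZO against B6, 15.3% for DBA against B6 and 18.0% for NZO against DBA. The differences ran from -0.69 to 0.51 in NZO minus B6, from -0.49 to 0.57 in DBA minus B6 and from -0.56 to 0.27 in NZO minus DBA. Ugt2b34 was the gene that changed in NZO, at 5.51, 4.97, 5.38 and 5.17 in NZO, against 5.97, 5.84, 6.17 and 5.81 in B6. The ranges did not overlap, and NZO was lower by -0.69 (SE 0.19, adjusted p = 0.0157). This call was lost without NZO 7 or B6 11. NZO minus DBA was -0.56 (SE 0.19, adjusted p = 0.0486), with the DBA mice at 5.34, 6.02, 6.03 and 5.89 and overlapping ranges, and that call was lost on leaving out any 1 of 16 arrays. Ugt2b1 was the gene that changed in DBA, at 5.92, 6.16, 6.03 and 5.92 in DBA, against 5.46, 5.70, 5.52 and 5.05 in B6. It was higher in DBA by 0.57 (SE 0.16, adjusted p = 0.0172), without overlap. A block for scan day ended the call (adjusted p = 0.183), and it was also lost without DBA 8 or B6 15. Ugt2a3 stayed between -0.07 and 0.07 in all 4 comparisons of strains, with strain means from 5.57 in C3H to 5.77 in DBA.

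Between C3H and 129Ola, 4 of the 9 Ugt2 genes were lower in C3H and none was higher, where 37.8% of all genes were called and 22.5% were lower. Ugt2b35 was at 3.60, 3.37, 3.60 and 3.39 in C3H, against 4.69, 5.06, 4.11 and 3.52 in 129Ola. C3H was lower by -0.85 (SE 0.26, adjusted p = 0.0148), but 129Ola 9 lay within the C3H range, and the call was lost without 129Ola 5. Its second probe gave -0.59 (SE 0.25, adjusted p = 0.0775). Ugt2b5 was at 6.36, 6.54, 6.61 and 6.37 in C3H, against 7.42, 7.51, 7.18 and 6.82 in 129Ola, lower by -0.77 (SE 0.17, adjusted p = 0.00272). Ugt2b38 was lower by -0.56 (SE 0.14, adjusted p = 0.00586) and Ugt2b36, on the probe that also lists Ugt2b37, by -0.48 (SE 0.13, adjusted p = 0.00707). With the array percentile over probes above background on all arrays, these 4 differences were -0.69, -0.60, -0.39 and -0.32, all past the threshold. For Ugt2b38 quantile normalization gave -0.31 (adjusted p = 0.0629) and the authors' value table -0.32 (adjusted p = 0.0609), which both end its call. With slide as a random block none of the 4 passed, and the adjusted p ran from 0.0679 for Ugt2b36 to 0.189 for Ugt2b35. Ugt2a1, an enzyme known from the olfactory epithelium, was near the floor of the arrays, from -3.41 to -2.36 in NZO, above background in 3 of 4 NZO, 4 of 4 DBA, 3 of 4 B6, 3 of 4 C3H and 0 of 4 129Ola mice. Ugt2b37 was at 4.29 to 4.39 in C3H and 4.01 to 5.22 in 129Ola, against 5.37 to 5.99 in NZO, 5.02 to 5.63 in DBA and 4.68 to 5.71 in B6. Its test over the 5 strains passed (adjusted p = 0.000254), but none of the 4 comparisons within a software version did.

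Ugt3a1 showed a wide gap across the software versions, and a small difference within them. In humans the enzyme of this name uses UDP-N-acetylglucosamine in place of UDP-glucuronic acid. Its level was 5.01, 4.54, 4.76 and 4.81 in NZO, 4.51, 4.80, 4.48 and 4.77 in DBA, and 4.21, 4.26, 3.74 and 3.92 in B6. It was 2.14, 2.33, 2.41 and 2.12 in C3H, and 2.16, 1.78, 2.81 and 1.42 in 129Ola. All 12 mice of the first 3 strains were above all 8 of the others, a step that cannot be told apart from the version. NZO was higher than B6 by 0.75 (SE 0.22, adjusted p = 0.0212), without overlap, a call lost without NZO 3, B6 11 or B6 15. DBA minus B6 was 0.61 (SE 0.22) and did not pass. Ugt3a2 had 2 probes, and both were lower in C3H than in 129Ola, by -0.50 (SE 0.11, adjusted p = 0.00177) on the brighter and by -0.45 (SE 0.15, adjusted p = 0.0288) on the other. The brighter probe was at 5.34, 5.55, 5.62 and 5.33 in C3H, against 6.10, 5.96, 6.07 and 5.70 in 129Ola.

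**Figure D3:**
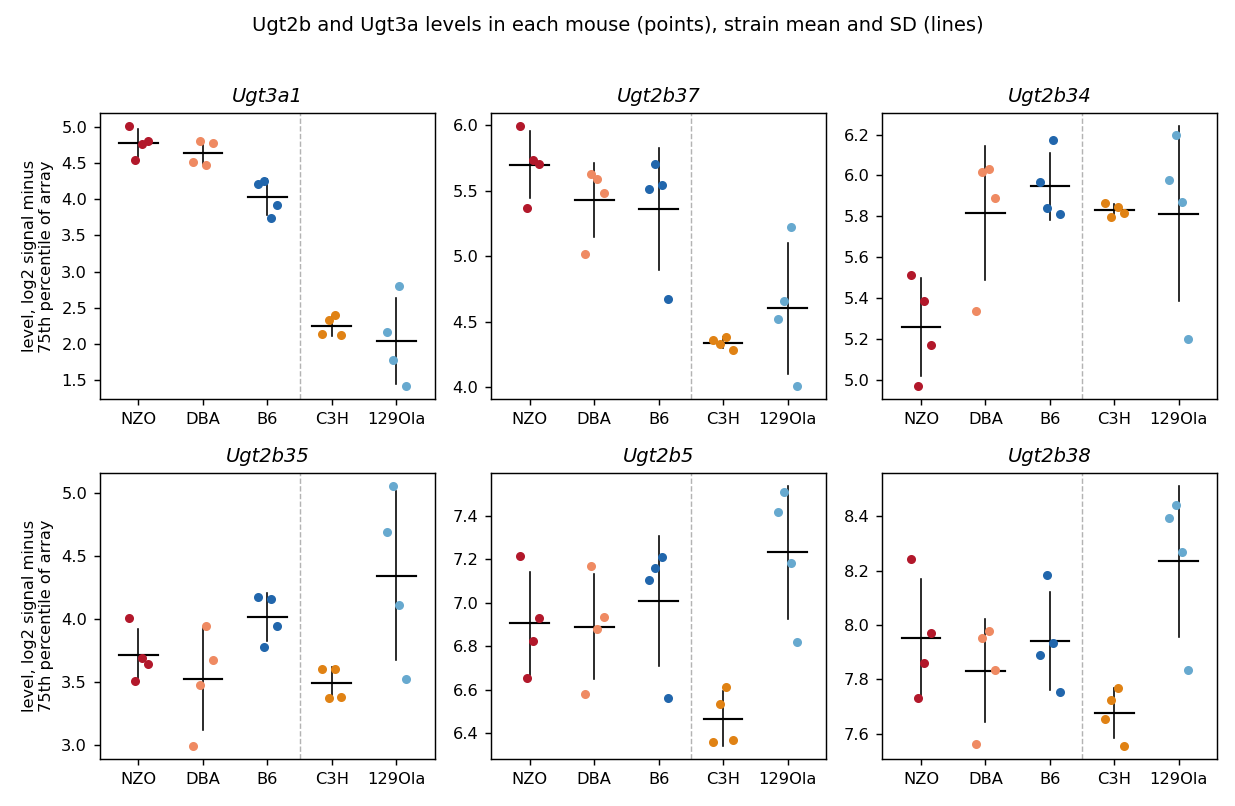
Level (y axis, log2 signal minus the 75th percentile of the array, a scale per panel) of 5 Ugt2b genes and Ugt3a1 in each mouse (points) by strain (x axis), with strain mean and SD (lines) and a dashed line between the software versions. Ugt3a1 means are 4.78 in NZO, 4.64 in DBA and 4.03 in B6, and 2.25 in C3H and 2.04 in 129Ola. Ugt2b34 is low in NZO.

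Sult1a1, the main sulfotransferase of simple phenols, was low in NZO alone of the 5 strains. Its level was 5.45, 4.90, 5.54 and 5.75 in NZO, against 7.19, 7.09, 6.97 and 7.22 in DBA and 6.64, 6.74, 6.35 and 6.84 in B6. In C3H it was 6.75 to 7.13 and in 129Ola 6.90 to 7.92, so every NZO mouse was below every other mouse. NZO minus B6 was -1.23 (SE 0.20, adjusted p = 0.00018), 0.427 times the B6 level. NZO minus DBA was -1.70 (SE 0.20, adjusted p = 4.7e-06), 0.307 times the DBA level. The second probe gave -1.19 and -1.71 (SE 0.20 each), but it shares 8 bases with the first and hybridises next to it, so the 2 are not independent. Both calls held under every alternative tried. On scan days 1 and 2, NZO minus B6 was -1.21 and -1.59. The second probe lies at chr7:133816657-133816716 (mm9, minus strand), and its sequence is shown, with the 8 bases of chr7:133816657-133816664 that the brighter probe also covers in capitals.
Sult1a1, second probe: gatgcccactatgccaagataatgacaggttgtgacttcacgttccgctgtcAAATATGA

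The 3 other Sult1 genes of moderate signal followed different orders of the strains. Sult1b1, known for sulfating thyroid hormones, was at 4.56, 3.97, 4.24 and 4.21 in NZO and 3.62, 3.96, 3.90 and 3.87 in DBA, against 3.55, 3.59, 3.34 and 3.29 in B6. It was higher in NZO than in B6 by 0.81 (SE 0.13, adjusted p = 0.000207). DBA minus B6 was 0.40 (SE 0.13, adjusted p = 0.0496) and NZO minus DBA 0.41 (SE 0.13, adjusted p = 0.0359). The DBA minus B6 call was lost on leaving out any 1 of 15 of the 20 arrays, and that of NZO minus DBA on leaving out any 1 of 6. A block for scan day ended both (adjusted p = 0.249 for DBA minus B6 and 0.115 for NZO minus DBA). In C3H it was lower than in 129Ola by -0.75 (SE 0.13, adjusted p = 0.000301), at 3.29 to 3.61 in C3H and 3.96 to 4.32 in 129Ola. Sult1c2 was at 1.59 to 2.20 in NZO and 1.90 to 2.41 in DBA, against 1.03 to 1.77 in B6. It was higher in DBA by 0.87 (SE 0.22, adjusted p = 0.0087), without overlap, and in NZO by 0.66 (SE 0.22, adjusted p = 0.0416), with overlap. The NZO call was lost on leaving out any 1 of 9 arrays and with scan day as a block (adjusted p = 0.0546). In C3H, at 1.89 to 2.28, it was lower than in 129Ola, at 2.32 to 3.25, by -0.73 (SE 0.22, adjusted p = 0.0132), a call lost without 129Ola 4 and with slide as a random block (adjusted p = 0.175).

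Sult1d1, which sulfates catecholamines in mice, ran the other way in NZO. It was at 2.66, 1.71, 2.22 and 2.86 in NZO, against 3.14, 2.78, 2.90 and 3.47 in B6, and was lower by -0.71 (SE 0.23, adjusted p = 0.0428), with overlap and with a call lost on leaving out any 1 of 9 arrays. In C3H it was at 2.43, 2.30, 2.60 and 1.76, against 3.55, 3.02, 3.32 and 3.52 in 129Ola. All C3H mice were below all 129Ola mice, and the difference was -1.08 (SE 0.23, adjusted p = 0.00182, and 0.059 with slide as a random block). DBA minus B6 was -0.43 (SE 0.23) and did not pass.

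Sult1e1, the estrogen sulfotransferase, was high in 129Ola and low in C3H, with a wide spread in NZO and B6. Its level was -1.15, -3.19, -3.54 and -1.47 in NZO, -0.90, 0.36, -0.52 and -0.59 in DBA, and -2.12, -4.09, -2.78 and -1.65 in B6. It was -3.61, -3.23, -2.45 and -3.72 in C3H, against 1.36, 2.18, 1.69 and 2.05 in 129Ola. The probe was above background in 4 of 4 NZO, 4 of 4 DBA, 3 of 4 B6, 1 of 4 C3H and 4 of 4 129Ola mice, and the NZO mice fell into 2 higher and 2 lower ones. All 129Ola mice were above all C3H mice, and C3H minus 129Ola was -5.07 (SE 0.54, adjusted p = 1.86e-06). The size of that difference depends on how signals near background are treated: with normexp background correction it was -2.38 (adjusted p = 4.43e-08). DBA was higher than B6 by 2.25 (SE 0.54, adjusted p = 0.00715) and NZO lower than DBA by -1.93 (SE 0.54, adjusted p = 0.0185), both without overlap. With scan day as a block the adjusted p of these 2 was 0.174 and 0.243, and with normexp the differences were 1.03 and -0.85. The NZO minus DBA call was also lost without NZO 7, NZO 9 or DBA 8. On scan days 1 and 2, with 1 DBA mouse each, DBA minus B6 was 2.35 and 1.55. NZO minus B6 was 0.32 (SE 0.54) and did not pass.

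Sult2a7, of the hydroxysteroid sulfotransferases that act on bile acids and dehydroepiandrosterone, was the only Sult2 gene that passed the filter. Its level was -0.17, 0.24, 0.41 and 0.27 in DBA, against -0.97, -1.56, -1.05 and -0.70 in B6. All DBA mice were above all B6 mice, by 1.26 (SE 0.33, adjusted p = 0.0124), 2.39-fold. With scan day as a block the difference was 1.19 and the adjusted p 0.0586, and with normexp the difference was 0.81 (adjusted p = 0.00127). NZO minus B6 was 0.52 (SE 0.33) and C3H minus 129Ola 0.82 (SE 0.33). Neither passed, and both pairs overlapped. C3H minus 129Ola passed with the percentile over probes above background on all arrays, at 0.98 (adjusted p = 0.0228).

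Sult4a1, a conserved member known from brain and with no settled substrate, was high in NZO. Its level was 0.01, -0.49, -0.48 and -0.65 in NZO, against -1.85, -3.69, -2.13 and -2.60 in DBA and -3.31, -2.12, -2.51 and -1.73 in B6. It was -2.61 to -1.83 in C3H and -3.18 to -1.89 in 129Ola, so every NZO mouse was above every mouse of the other strains. NZO minus B6 was 2.02 (SE 0.39, adjusted p = 0.00101, 4.04-fold) and NZO minus DBA 2.16 (SE 0.39, adjusted p = 0.000464, 4.48-fold). With normexp these differences were 0.87 and 0.93, still past the threshold. The result rests on 1 of 3 probes, since the other 2 were above background on none of the 20 arrays. The probe was above background in 4 of 4 NZO, 3 of 4 DBA, 4 of 4 B6, 3 of 4 C3H and 1 of 4 129Ola mice.

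Sult5a1, a member with no settled substrate, was low in B6. Its level was 3.25, 3.17, 3.38 and 3.41 in NZO and 2.74, 3.50, 3.34 and 3.08 in DBA, against 1.80, 1.80, 2.42 and 1.41 in B6. Neither strain overlapped with B6. NZO was higher than B6 by 1.45 (SE 0.28, adjusted p = 0.00125, 2.72-fold) and DBA by 1.31 (SE 0.28, adjusted p = 0.00303, 2.47-fold), and both calls held under every alternative tried. NZO minus DBA was 0.14 (SE 0.28). C3H, at 2.94 to 3.57, and 129Ola, at 1.68 to 3.36, differed by 0.62 (SE 0.28), which did not pass. With the percentile over probes above background on all arrays this difference passed, at 0.78 (adjusted p = 0.0335). The sequences of the Sult5a1 probe (chr8:125666951-125667010, mm9, minus strand) and the Sult2a7 probe (chr7:15050514-15050573, mm9, minus strand) are shown because each result rests on that probe alone (a second Sult5a1 probe did not pass the filter).
Sult5a1 probe: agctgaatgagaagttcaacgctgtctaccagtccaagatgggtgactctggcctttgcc
Sult2a7 probe: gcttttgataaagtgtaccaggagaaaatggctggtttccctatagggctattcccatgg

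**Figure D4:**
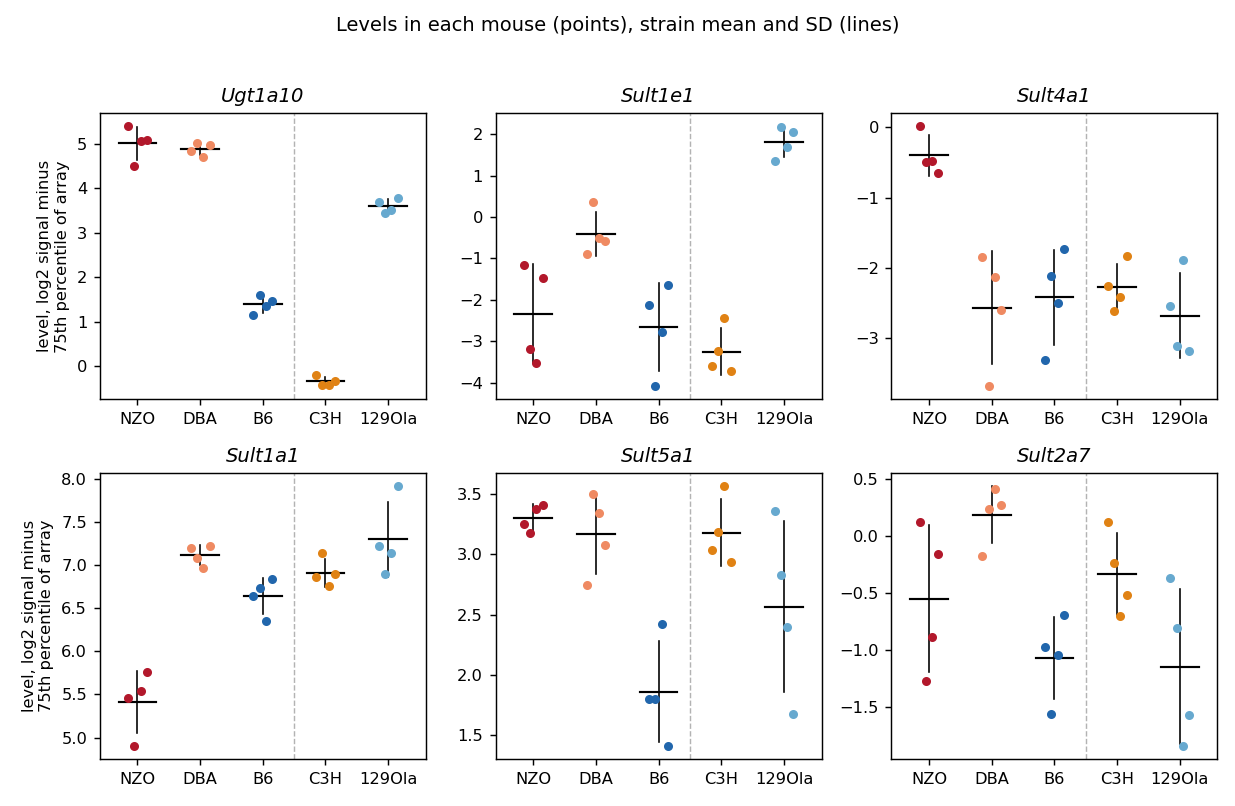
Level (y axis, log2 signal minus the 75th percentile of the array, a scale per panel) of Ugt1a10 and 5 Sult genes in each mouse (points) by strain (x axis), with strain mean and SD (lines) and a dashed line between the software versions. Ugt1a10 has means of 5.01 in NZO and 4.89 in DBA against 1.39 in B6, and of -0.35 in C3H against 3.61 in 129Ola. Sult4a1 is high and Sult1a1 low in NZO alone.

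The susceptible and the resistant strains were compared through 2 pairs of equal weight: the average of NZO and DBA set against B6, and C3H set against 129Ola. Of the 22 genes, 10 changed, 45.5% against 29.6% of all genes, 3 higher in the susceptible strains (12.2% of all genes) and 7 lower (17.4%). Sult5a1 was higher by 0.995 (SE 0.19, adjusted p = 0.000675), Sult2a7 by 0.85 (SE 0.22, adjusted p = 0.00704) and Ugt3a1 by 0.44 (SE 0.14, adjusted p = 0.0268). Sult1e1 was lower by -1.89 (SE 0.36, adjusted p = 0.000731) and Sult1d1 by -0.83 (SE 0.15, adjusted p = 0.000636). For Sult1e1 the pairs had opposite signs, 1.285 in the first and -5.07 in the second, so only C3H against 129Ola made it lower. The other 5 that were lower, Ugt2b35, Ugt2b5, Sult1a1, Ugt2b38 and Ugt3a2, ran from -0.63 to -0.25. Ugt2b35, Ugt2b5, Ugt2b38 and Ugt3a2 were called in C3H against 129Ola, but not in NZO or DBA against B6. The first pair was -0.11 for Ugt2b5, -0.05 for Ugt2b38 and 0.01 for Ugt3a2. In the second pair, where batch and strain cannot be told apart, these 3 were at -0.77, -0.56 and -0.50. For Sult1a1, a difference of -0.38 (adjusted p = 0.0352) combined values of NZO and DBA on either side of B6. That call was lost in 13 of 30 other settings, among them quantile normalization (adjusted p = 0.0895), normexp (0.112), the authors' value table (0.134) and leaving out any 1 of 7 arrays. With slide as a random block Sult1d1, Sult1e1, Sult2a7 and Sult5a1, 4 of the 10, remained. The replicate of a class is the strain, so these values describe these 5 strains.

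The 2 pairs that make up the class comparison disagreed for several members. The difference between them, (NZO + DBA)/2 minus B6 less C3H minus 129Ola, passed for 11 of the 22 genes, against 31.2% of all genes. Ugt1a10 differed most in size, at 7.51 (SE 0.20, adjusted p = 2.43e-14): it was higher by 3.56 in the first pair and lower by -3.96 in the second, and its class difference was -0.20 (SE 0.10) without a call. Sult1e1 differed by 6.36 (SE 0.72, adjusted p = 4.22e-06), Sult1c2 by 1.495 (SE 0.28, adjusted p = 0.000741) and Sult1b1 by 1.35 (SE 0.17, adjusted p = 1.55e-05).

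Related genes were counted with the same fits, from lists chosen with earlier results of these data known. No list was tested as a set. Of all genes, 9.69% were higher and 8.55% lower in NZO than in B6, and 7.25% higher and 8.08% lower in DBA than in B6. In NZO against DBA 9.78% were higher and 8.26% lower, and in C3H against 129Ola 15.3% higher and 22.5% lower. The counts here and in the next paragraphs are to be read against these shares. Of 11 genes that supply UDP-glucuronic acid and PAPS, 3 were lower and 0 higher in NZO than in B6, 2 lower in DBA than in B6, 1 lower in NZO than in DBA, and 3 higher and 3 lower in C3H than in 129Ola, with medians of 0.10, 0.07, 0.05 and -0.11. Papss2, which makes PAPS, was lower than in B6 in NZO by -0.68 (SE 0.18, adjusted p = 0.0113) and in DBA by -0.84 (SE 0.18, adjusted p = 0.00264). Slc26a1, a sulfate transporter, was lower in NZO by -0.66 and in DBA by -0.75 (SE 0.13 each), and higher in C3H than in 129Ola by 1.53 (SE 0.13). For Bpnt1, which removes the product of PAPS use, the probe of highest mean was higher in C3H than in 129Ola by 3.53 (SE 0.31), with 2 of 4 129Ola mice above background, and another probe gave -2.56. Of 7 deconjugating enzymes, 1 was higher and 1 lower in NZO than in B6, 1 higher and 2 lower in DBA than in B6, and 1 higher and 2 lower in C3H than in 129Ola, while 1 was lower in NZO than in DBA. Sts, the steroid sulfatase, was lower in DBA than in B6 by -1.07 (SE 0.23, adjusted p = 0.00269) and in C3H than in 129Ola by -1.13 (SE 0.23, adjusted p = 0.00115). A scan-day block ended the DBA minus B6 call (adjusted p = 0.0987) and slide as a random block that of C3H minus 129Ola (0.0511). Arsg, a lysosomal sulfatase, was higher in NZO than in B6 by 1.40 (SE 0.19, adjusted p = 2.5e-05).

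Of 9 transporters of conjugates, 2 were lower and 0 higher in NZO than in B6, 4 lower and 1 higher in DBA than in B6, 4 higher and 1 lower in NZO than in DBA, and 4 lower and 0 higher in C3H than in 129Ola. Abcc3, which exports glucuronides towards blood, was lower in NZO than in B6 by -1.23 (SE 0.17, adjusted p = 4.18e-05) and higher in DBA than in B6 by 0.64 (SE 0.17, adjusted p = 0.0139), a call lost with scan day as a block (adjusted p = 0.0923), with slide as a random block (0.0587) and without DBA 8. Abcc4, an exporter of sulfated bile acids and steroids, was lower in DBA than in B6 by -1.40 (SE 0.21, adjusted p = 9.71e-05) and in C3H than in 129Ola by -1.20 (SE 0.21, adjusted p = 0.000353). With normexp these were -0.50 in DBA minus B6 and -0.44 in C3H minus 129Ola, both past the threshold. Of 13 regulators of these genes, 1 changed in each of the comparisons among NZO, DBA and B6, and it was Nr1i3 each time. Nr1i3, the constitutive androstane receptor, was lower in NZO than in B6 by -0.99 (SE 0.18, adjusted p = 0.000586), higher in DBA than in B6 by 0.65 (SE 0.18, adjusted p = 0.0166), and lower in C3H than in 129Ola by -1.20 (SE 0.18, adjusted p = 6.76e-05), where 4 of the 13 were lower and 0 higher. Its DBA minus B6 call was lost with scan day as a block (adjusted p = 0.087), with slide as a random block (0.0655) and without DBA 9 or B6 15.

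Among 11 target genes of xenobiotic receptors, 1 was higher and 4 lower in NZO than in B6, 3 higher and 0 lower in DBA than in B6, 1 higher and 5 lower in NZO than in DBA, and 1 higher and 6 lower in C3H than in 129Ola. Cyp2b10 was higher than in B6 in NZO by 6.04 (SE 0.65, adjusted p = 2.21e-06) and in DBA by 3.39 (SE 0.65, adjusted p = 0.00103), and lower in C3H than in 129Ola by -2.07 (SE 0.65, adjusted p = 0.0191). It was above background in 1 of 4 B6 and 2 of 4 C3H mice, so these sizes depend on the treatment of background: with normexp they were 2.43 in NZO minus B6, 0.76 in DBA minus B6 and -0.79 in C3H minus 129Ola, all past the threshold. The C3H minus 129Ola call was lost with slide as a random block (adjusted p = 0.197) and without C3H 1 or C3H 3. Cyp1a2, a target of the aryl hydrocarbon receptor, was higher in DBA than in B6 by 2.23 (SE 0.12) and lower in NZO than in DBA by -2.67 (SE 0.12). Of 9 female-biased liver genes, 5 were higher and 2 lower in NZO than in B6 (median 2.86), among them Hao2 and Cyp3a44. No B6 array had either gene above background, so on the processed signal only a bound was taken, from the lowest level above background on each B6 array. By it Hao2 was at least 35.8-fold higher (measured means 1.09 in NZO and -5.88 in B6, adjusted p = 7.26e-07) and Cyp3a44 at least 54.4-fold higher (measured means 1.69 in NZO and -5.03 in B6, adjusted p = 6.92e-07). On the log2 scale these bounds are 5.16 and 5.77. They depend on the treatment of background: with normexp the differences were smaller, 2.45 for Hao2 and 3.10 for Cyp3a44, both past the threshold. In DBA 2 were higher and 1 lower than in B6, in NZO 4 higher and 1 lower than in DBA, and in C3H 1 higher and 2 lower than in 129Ola. Of 12 male-biased genes, 2 were higher and 2 lower in NZO than in B6, 3 higher in DBA than in B6, 4 lower in NZO than in DBA, and 3 higher and 4 lower in C3H than in 129Ola.

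The 9 genes not detected were Sult1c1, Sult2a1, Sult2a2, Sult2a3, Sult2a4, Sult2a6, Sult2b1, Sult3a1 and Sult6b1. They include the remaining hydroxysteroid sulfotransferases on the array, the cholesterol sulfotransferase Sult2b1 and Sult3a1, which sulfates amines. For Sult2a1, Sult2a2, Sult2a3, Sult2a4 and Sult2a6, 5 of the 9, a probe lists transcripts of more than 1 Sult2a gene. Sult2b1 came closest to passing, with 3 of 4 B6, 1 of 4 DBA and 1 of 4 129Ola mice above background. These genes have no measured level here, only a bound.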

How the data were processed

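Per the labels, liver RNA labelled with Cy3 was hybridised to Agilent 1-colour mouse arrays, 1 array per mouse. Per the file headers, the deposited spot intensity values came from Agilent Feature Extraction 11.0.1.1 (NZO, DBA, B6) and 11.5.1.1 (C3H, 129Ola), whereas the submitters' processing notes give 9.1. The processed signal is background-subtracted and not normalized between arrays. The authors' value table, with a linear intensity scale whose 37892 probes have a median of 19.9 in every column and a background correction that is not given in the sources used here, served as an alternative.

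Control and outlier spots were left out, spots of a probe averaged, and log2 of the signal taken minus each array's 75th percentile. Probes well above background on all 4 arrays of a strain were kept (28417 probes, 20684 genes), and the brightest stood for its gene. Of 29561 probes with a RefSeq accession, 27664 were named through the GRCm38.p6 gene table, which served for names only. Coordinates are mm9, as in the array files. No strain genome was used, so sequence variants under the probes were not looked for. The 20 arrays were fitted together with limma 3.58.1 in R 4.3.3, 1 mean for each strain (15 residual degrees of freedom, 17.1 with eBayes). P-values are two-sided and adjusted by Benjamini-Hochberg over all genes tested, with a threshold of 0.05. The number of arrays and signal over background limit precision. The fit was tested on simulated data with independent noise and no effect of scan day or slide, so that test does not cover batch effects.

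Members and gene lists were chosen with earlier results of these data known. Every member is accounted for. Members with a called difference of at least 1, or whose probes disagree, have values per mouse. Of a related list, at most 3 called genes per comparison, those of largest difference, could be named. Same-numbered mice of different strains did not deviate together (correlation of deviations -0.34 to 0.38 over 6 pairs within a software version, 1 of them over 0.1), so animal numbers do not pair mice.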

Additional observations from a re-analysis of the deposited data

Results flagged for a closer look

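The difference between the 2 class pairs, (NZO + DBA)/2 minus B6 less C3H minus 129Ola, passed for 11 members by limma's test of that difference (adjusted p from 2.43e-14 to 0.0483), and all 11 were above 0. Besides Ugt1a10 (7.51), Sult1e1 (6.36), Sult1c2 (1.495) and Sult1b1 (1.35), these were Ugt1a6a (1.32), Ugt1a6b on its shared-end probe (0.91), Ugt2b5 (0.65), Ugt2b36 (0.60), Ugt2b1 (0.60), Ugt3a2 (0.51) and Ugt2b38 (0.51). The pairs lie in different versions of the extraction software and on different scan days. The first pair was above 0 and the second below 0 for all of them except Ugt2b5 and Ugt2b38, which were below 0 in both; the first pair was 0.01 for Ugt3a2 and the second -0.09 for Ugt2b1. For Ugt2b1, Ugt2b5 and Ugt2b38 the call was lost with quantile normalization, normexp, the authors' value table and the percentile over probes above background on all arrays (adjusted p from 0.12 to 0.49), and for Ugt3a2 and Ugt2b36 it was lost with these 4 as well (0.0521 to 0.22).

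In 6 of 110 groups of 4 mice, 1 mouse stood apart by Dixon's criterion, a large gap to the nearest mouse relative to the range, which chance gives in about 1 group in 20. They were Ugt1a6a in B6 9 (-3.08, nearest -2.71), Ugt1a6b in DBA 5 (8.30, nearest 8.50), Ugt1a6b in C3H 5 (7.85, nearest 7.99), Ugt2a1 in C3H 3 (-4.35, nearest -2.77), Ugt2a3 in DBA 5 (5.50, nearest 5.84) and Ugt2b5 in B6 15 (6.56, nearest 7.11). All 6 were below the rest of their strain, and Ugt2a1 in C3H 3 was not above background.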

How the results depend on the processing

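The counts of called members stayed within 1.5 times the reported ones under most alternatives. With scan day as a block, 4 members passed in DBA against B6 (8 as reported) and 2 in NZO against DBA (5). With only probes above background on all arrays 3 passed in NZO against DBA, and with only the arrays of the strains compared 2. With slide as a random block 5 passed in C3H against 129Ola (12) and 4 in the class comparison (10). With the animal number as a random replicate block (correlation -0.03) 10, 7, 5, 12, 10 and 20 passed in NZO against B6, DBA against B6, NZO against DBA, C3H against 129Ola, the class and the 5 strains. Without 1 array at a time the counts ran from 6 to 11, 6 to 10, 2 to 5, 10 to 13, 8 to 12 and 18 to 21 in the same order, lowest for NZO against B6 without B6 11 and for NZO against DBA without NZO 9. Without a filter on dim probes 28 of 31 members passed over the 5 strains, and 21917 genes in all. That is more members than were detected, so the count takes in genes below background, whose values depend on the floor of the arrays. Sult1c1, above background on no array, had means of -5.99 in NZO and -4.925 in 129Ola. The direction turned for Ugt1a6b in NZO minus B6 with the mean of its probes (-0.12), and for Bpnt1 with only probes above background on all arrays or every probe as a feature (-2.56 in C3H minus 129Ola, -1.28 in the class comparison). The causes were not tested. Of 56 called member differences, 25 passed under every alternative that gave a value, among them those of Ugt1a10 and the strain differences of Sult1a1, Sult4a1 and Sult5a1. Sult4a1 has no value with the authors' table or with only probes above background on all arrays. Signal over background limits Sult1e1, Sult4a1, Ugt1a6a, Ugt2a1 and the second Ugt1a10 probe.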
